A study of Mus musculus with 6 samples.

Results

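The genes described here are 31 enzymes and regulators of cholesterol and fatty acid synthesis, taken by symbol from the 45703 genes of the count table, and all 31 were found. They comprise 18 sterol synthesis enzymes, 10 fatty acid synthesis enzymes and 3 regulators. Levels were measured by RNA sequencing in 6 replicate cultures of dorsal root ganglia (DRG), the sensory ganglia beside the spinal cord. The mice were adult wild type C57BL/6 animals aged 4 to 6 weeks, and cells were grown for 7 days. The medium held 10% serum plus the growth factors EGF and FGF, each at 10 ng/ml. RNA of 2 dishes was pooled per sample. All cultures belong to 1 group with the same genotype, medium and time, so there is no contrast between conditions, and the comparisons are between cultures and between genes within a culture. The labels call the samples biological replicates but do not say whether each came from separate animals.

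Cells build cholesterol from acetyl-CoA through the mevalonate pathway, in which isoprenoid units are joined to squalene, cyclised to lanosterol and trimmed to cholesterol. Fatty acids are built from the same precursor and then elongated and desaturated. Both branches are controlled by the sterol regulatory element binding proteins (SREBPs), transcription factors held in the endoplasmic reticulum by Insig proteins when sterols are plentiful. In peripheral nerve these pathways are best known in Schwann cells, the glia that make the lipid-rich myelin sheath.

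The libraries held 20070639 to 22968642 counts, and 14998 genes passed the low-count filter. Marker genes checked the labelled tissue. All 6 glial lineage markers, all 8 myelin markers and all 6 neuron markers had more than 3 counts in at least 1 library. The summed level of the glial lineage list lay between 951 and 1385 CPM per kb (CPM is a gene's counts scaled to a common library size, here divided by its exon length in kilobases). Fibroblast markers summed to between 621 and 2662 CPM per kb and mural cell markers to between 27.2 and 343. Adipocytes are another cell type rich in these enzymes, and 3 of their 5 markers, Cidec, Lep and Retn, had at most 3 counts in every library. Adipoq reached at most 6 counts and Plin1 at most 11, both in replicate 5. Replicate 5 stood apart. Its fibroblast list was highest, at 2662 CPM per kb, against a mean of 993 in the other cultures. Its myelin list was lowest, at 677 against 1414 CPM per kb.

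Promoters of the genes are shown first, as a description. Whether their motifs bear on the levels in these cultures was not tested. The RefSeq promoter table for GRCm38.p6 held 25 of the 31 genes, in 31 entries, and had none for Fdps, Fdft1, Sqle, Scd1, Scd2 and Fads1. The 250 bases before the annotated start are printed 5′ to 3′ for 6 genes, with motif matches in capitals. Capitals mark CCAAT or its reverse ATTGG (the NF-Y box), CACGTG (the E-box) and TCACNCCAC (a short form of the sterol regulatory element). Hmgcs1, Mvk and Msmo1 are sterol enzymes with 3 or more NF-Y boxes each. Insig1 is the sterol sensor's partner, Fasn is fatty acid synthase, and Fads2 is a desaturase with no match. The windows lie at chr13:119690101-119690350 (plus strand) for Hmgcs1, chr5:114444019-114444268 (plus) for Mvk and chr8:64733579-64733828 (minus) for Msmo1. They lie at chr5:28071162-28071411 (plus) for Insig1, chr11:120824548-120824797 (minus) for Fasn and chr19:10101504-10101753 (minus) for Fads2.
Hmgcs1: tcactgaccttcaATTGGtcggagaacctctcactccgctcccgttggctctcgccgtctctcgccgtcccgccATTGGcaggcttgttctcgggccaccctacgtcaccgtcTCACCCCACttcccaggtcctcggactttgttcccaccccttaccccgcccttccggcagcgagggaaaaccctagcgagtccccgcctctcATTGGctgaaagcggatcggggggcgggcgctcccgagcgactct
Mvk: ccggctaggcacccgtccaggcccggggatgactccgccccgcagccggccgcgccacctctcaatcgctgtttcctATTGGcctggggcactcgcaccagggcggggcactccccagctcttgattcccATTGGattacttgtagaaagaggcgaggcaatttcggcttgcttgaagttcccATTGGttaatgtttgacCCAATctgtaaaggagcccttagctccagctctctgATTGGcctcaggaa
Msmo1: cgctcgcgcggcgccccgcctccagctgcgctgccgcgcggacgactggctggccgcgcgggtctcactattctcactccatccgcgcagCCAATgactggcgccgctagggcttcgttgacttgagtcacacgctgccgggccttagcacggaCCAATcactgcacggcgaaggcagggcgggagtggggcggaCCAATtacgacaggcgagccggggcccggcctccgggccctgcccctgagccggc
Insig1: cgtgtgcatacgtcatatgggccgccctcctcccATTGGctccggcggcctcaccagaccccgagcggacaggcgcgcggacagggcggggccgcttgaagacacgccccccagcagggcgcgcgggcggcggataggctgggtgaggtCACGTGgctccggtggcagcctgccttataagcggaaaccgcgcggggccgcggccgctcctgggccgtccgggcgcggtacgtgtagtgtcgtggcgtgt
Fasn: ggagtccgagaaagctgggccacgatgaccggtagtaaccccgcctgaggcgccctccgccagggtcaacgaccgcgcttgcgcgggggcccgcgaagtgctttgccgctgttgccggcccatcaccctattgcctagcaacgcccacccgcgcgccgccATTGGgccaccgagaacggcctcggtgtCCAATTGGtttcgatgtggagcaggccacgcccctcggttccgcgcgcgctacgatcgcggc
Fads2: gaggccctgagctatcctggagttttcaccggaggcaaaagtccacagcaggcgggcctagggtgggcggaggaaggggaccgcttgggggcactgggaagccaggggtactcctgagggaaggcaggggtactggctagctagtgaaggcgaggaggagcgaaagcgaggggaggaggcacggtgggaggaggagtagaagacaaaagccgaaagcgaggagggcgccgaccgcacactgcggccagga

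An NF-Y box was found on either strand in 20 of the 25 genes (80%). The share was 37.5% of the 27025 genes with a promoter in the table and 40.7% of the 10730 of them that passed the low-count filter. NF-Y is a general promoter factor known to act beside SREBPs. Of the 39 boxes in the members' promoters, 29 began within 120 bases of the start, and 11 members had 2 or more boxes in a single promoter. The E-box was found in 5 of 25 members (20%), namely Hsd17b7, Sc5d, Dhcr7, Insig1 and Elovl5, and in 6.86% of all genes and 9.77% of the filtered ones. The classical sterol regulatory element, which is the short form with A before it, was found in 0 of 25 members and in 0.226% of all genes. The short form itself, searched after the data were seen, was found in Hmgcs1 only (4.0% of members) and in 1.22% of all genes. In Fasn, overlapping boxes on opposite strands, starting 62 and 59 bases before the start, share letters. Each match is a string of letters in a window and not a measured binding site.

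**Figure D1:**
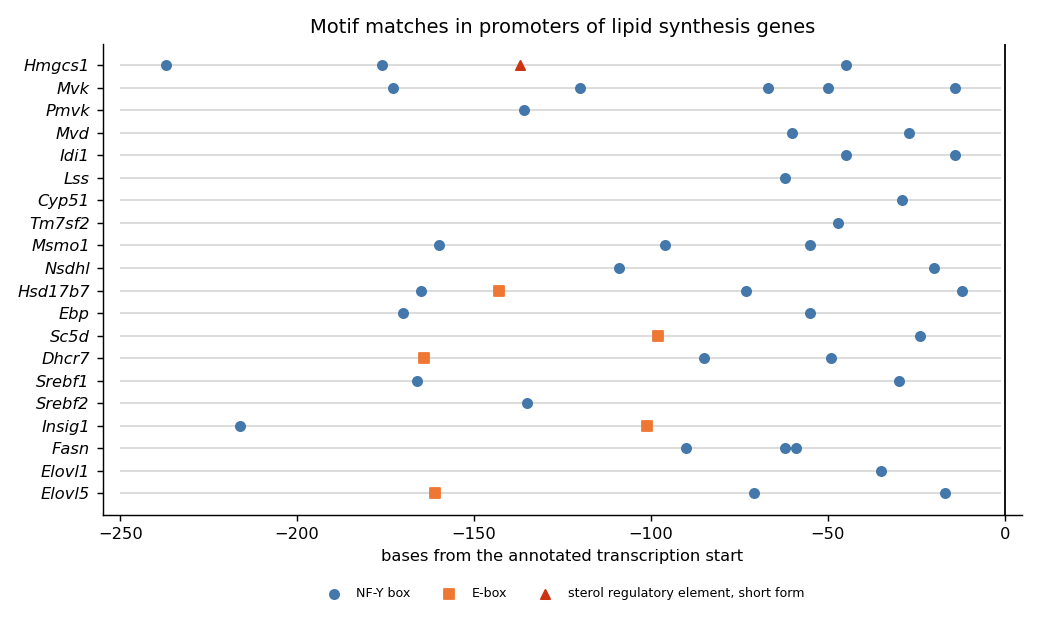
Positions of motif matches in the 250 bases before the annotated start for the 20 genes with any match; the x axis is bases from the start, circles are NF-Y boxes, squares E-boxes and the triangle the short sterol regulatory element. Of the 39 NF-Y boxes, 29 begin within 120 bases of the start, at the right of the plot, and starts of 1 gene with several promoters are overlaid.

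The 31 genes were expressed in every culture, and together they took 1.36% ± 0.252 of library counts (SD, n = 6). The share was 1.46, 1.44, 1.39, 1.36, 0.888 and 1.64% in replicates 1 to 6. The median level of the members was 40.8 CPM per kb, against 7.20 for the genes that passed the filter. All 31 lay above that median, and 14 were in its top 10%. The lowest was Acaca at 9.10 CPM per kb and the highest Scd2 at 911.

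Desaturation of fatty acids held the highest levels. Scd1 and Scd2 encode stearoyl-CoA desaturases, which turn saturated into monounsaturated fatty acids. Scd2 (chromosome 19, 44293676 to 44306864) had a lowest value of 3105 CPM, a median of 5218 and a highest of 5994. Scd1 (chromosome 19, 44394450 to 44407709) ranged from 1469 through a median of 2774 to 3493 CPM. For both, replicate 5 was the lowest and replicate 6 the highest library, and the other cultures lay close together. Scd2 was the second most counted gene of the table by mean CPM (rank 2) and Scd1 ranked 11. Together these genes took 55.9% ± 2.27 of the members' counts (SD, n = 6). Their counts were fractional in all 6 libraries, as were those of their paralogs Scd3 (mean 46.7 CPM, SD 10.5, n = 6) and Scd4 (mean 23.5 CPM, SD 5.18, n = 6), so the split of reads among these genes is uncertain. Scd3 and Scd4 were named after their values were seen. Fdps, Insig1 and Acaca were the other members with fractional counts in all 6 libraries, and 17 members had them in 1 to 5 libraries. Mir5114 lies inside Scd2 on the same strand and was credited with 994 to 1964.5 counts.

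Fads1 and Fads2 encode the front-end desaturases that make polyunsaturated fatty acids. Fads2 (chromosome 19, 10062765 to 10101503) ranged from 441 through a median of 760 to 870 CPM, and Fads1 (chromosome 19, 10182877 to 10196874) from 479 through 708 to 783 CPM. Both were lowest in replicate 5, below a tight group of the other cultures. The SD of the other 5 cultures was 37.6 CPM around 725.5 for Fads1 and 57.4 CPM around 777 for Fads2.

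The enzymes that supply and build the carbon chain were lower. Acly, which makes cytosolic acetyl-CoA from citrate, averaged 370 ± 37.8 CPM. Acaca, the acetyl-CoA carboxylase that commits carbon to fatty acids, averaged 113 ± 6.67 CPM, and Fasn, which assembles palmitate, 399 ± 62.6 CPM (SD, n = 6 for each). Acaca was the steadiest member, with a coefficient of variation (CV, the SD as a percentage of the mean) of 5.93% and values from 102.5 through a median of 113 to 121 CPM. The chain elongases Elovl1, Elovl5 and Elovl6 averaged 137 ± 13.2, 167 ± 39.5 and 68.8 ± 8.45 CPM (SD, n = 6). Elovl5 ranged from 119 through a median of 170 to 217 CPM and was the exception among the members, since its lowest library was replicate 1 and not replicate 5.

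Among sterol enzymes the upstream step had the highest level. Hmgcs1 (chromosome 13, 119690351 to 119708260), the cytosolic synthase of hydroxymethylglutaryl-CoA, ranged from 344 through a median of 545.5 to 659 CPM. Replicate 5 was again lowest, and replicate 1 was highest. Acat2, which joins acetyl-CoA units before that step, averaged 71.9 ± 11.8 CPM. The kinases and decarboxylase that follow were among the least counted members, with Mvk at 32.8 ± 4.74, Pmvk at 52.5 ± 10.95 and Mvd at 32.0 ± 4.78 CPM (SD, n = 6). Idi1, which isomerises the isoprenoid unit, averaged 98.01 ± 15.1 CPM.

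Fdps, which makes farnesyl diphosphate for sterols and for protein prenylation, averaged 164 ± 22.6 CPM (range 121 to 184.5, median 166). Fdft1, the squalene synthase, averaged 189 ± 26.3 CPM. Its annotated span overlaps the antisense gene Ctsb by 774 bases, and Ctsb was counted at 44397.5 to 50044, so the level of Fdft1 is uncertain because the strand setting of the counting is not given. Sqle, the squalene epoxidase and an early oxygen-dependent step, ranged from 167 through 227 to 261 CPM. Lss, which closes the ring system to lanosterol, ranged from 78.8 through 136 to 168 CPM. Replicate 5 was the lowest library for both, and the highest was replicate 1 for Sqle and replicate 6 for Lss.

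The enzymes that trim lanosterol to cholesterol ranged from 247 to 27.8 CPM, a measure not scaled by exon length. Per kb the order differed, with Nsdhl (51.5 CPM per kb) near Cyp51 (53.1) and Hsd17b7 lowest of these enzymes at 12.9. Msmo1, the sterol methyl oxidase, averaged 247 ± 40.8 CPM, Cyp51, the lanosterol demethylase, 231 ± 34.6 CPM, and Sc5d, a sterol desaturase, 201 ± 41.8 CPM (SD, n = 6). Nsdhl and Hsd17b7, which complete removal of the methyl groups, averaged 114 ± 15.4 and 71.8 ± 10.3 CPM, and Dhcr7, the final reductase, 86.2 ± 12.2 CPM. Ebp, the sterol isomerase, averaged 33.8 ± 2.44 CPM, and Tm7sf2, a sterol reductase, 27.8 ± 6.82 CPM. Ebp and Tm7sf2 differed in spread. Ebp ranged from 30.1 through 33.5 to 37.8 CPM with a CV of 7.22%, whereas Tm7sf2 ranged from 15.0 through 29.0 to 35.2 CPM with a CV of 24.5%.

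The 3 regulators lay between 42.7 and 58.3 CPM per kb, inside the range of the enzymes. Srebf2, the SREBP gene best known for cholesterol synthesis, ranged from 288 through a median of 325 to 362 CPM. Srebf1, the SREBP gene best known for fatty acid synthesis, ranged from 190 through 281 to 335 CPM, and Insig1 from 94.1 through 146 to 179 CPM. Replicate 5 was the lowest library for each. The highest was replicate 2 for Srebf2, replicate 6 for Srebf1 and replicate 1 for Insig1. Srebf1 overlaps the antisense gene Rai1 by 114 bases.

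**Figure D2:**
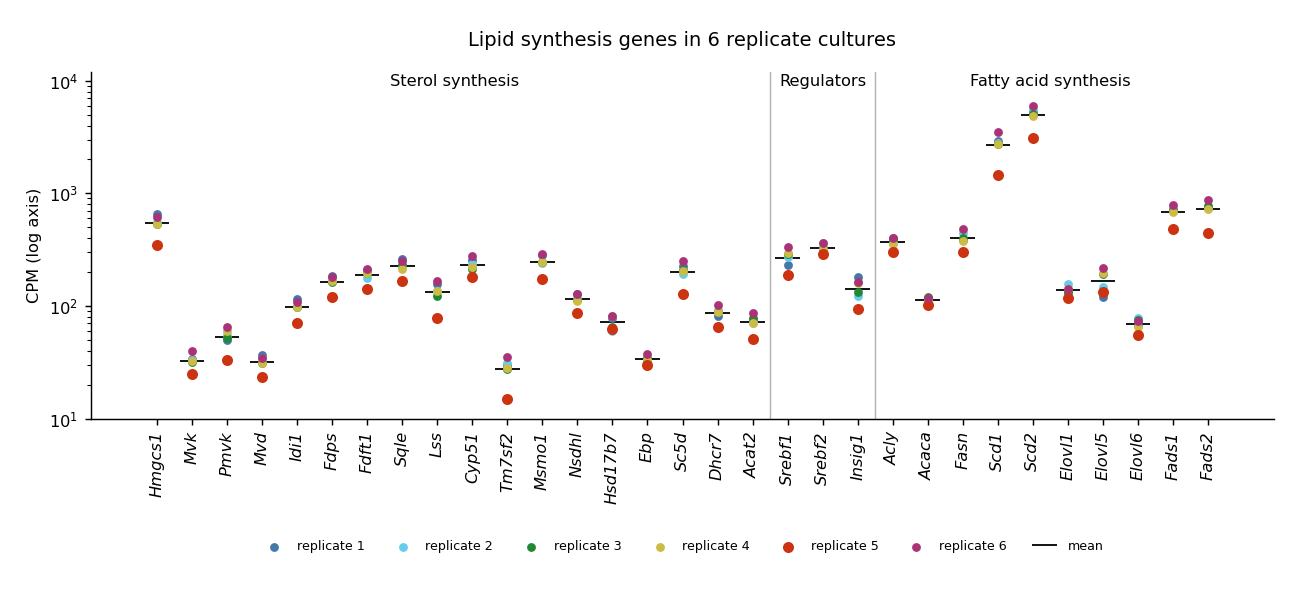
CPM on a log axis for the 31 genes, with 1 point per replicate culture and a black bar at the mean of 6; grey lines separate the sterol, regulator and fatty acid genes. Scd2 and Scd1 stand above all other members, and replicate 5 (large red points) is at the bottom of nearly every column.

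Spread between cultures was compared with counting noise by a chi-square test of the 6 counts, with p-values adjusted by the Benjamini-Hochberg method over all 14998 genes. The test called 76.3% of those genes, and 91.3% of the 6889 genes whose mean CPM was at least that of the lowest member. All 31 members were called, a share to be read against those backgrounds. The largest adjusted p among them was 0.00127 for Ebp (chi-square test). Without replicate 5, Acaca and Ebp were no longer called, and 29 of 31 members were, against 66.9% of all genes. The median CV was 15.4% over the members and 8.68% over the genes at or above the lowest member. Without replicate 5 these medians were 8.33% and 7.52%.

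Replicate 5 was the lowest library for 30 of 31 members after scaling by the trimmed mean of M-values (TMM), a correction of library size. The background share was 28.0% of all genes, and 33.6% of those at or above the lowest member. The exception was Elovl5. With plain library totals the count was 29 of 31, because Hsd17b7 was then slightly lower in replicate 2 (60.4 CPM) than in replicate 5 (61.9 CPM). Replicate 6 was the highest library for 21 members, against a background of 13.6%, and replicate 1 for 7 members, against 20.3%. Without replicate 5, replicate 3 was the lowest library for 12 members and replicate 4 for 10, against 18.0% and 18.9% of all genes. The highest was then replicate 6 for 21 members, against 16.7% of all genes. In 11 members replicate 5 stood apart from the other cultures by Dixon's gap criterion. That criterion was exceeded by 6.27% of all genes, and by 1.92% with replicate 5 lowest.

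The size of the shortfall differed between members. The CPM in replicate 5 had a median of 70.2% of the mean of the other 5 cultures over the members, and of 99.9% over all filtered genes. It was lowest for Tm7sf2 (49.5%), Scd1 (49.96%), Lss (54.9%), Fads2 (56.7%), Scd2 (58.1%), Sc5d (58.7%), Pmvk (58.8%) and Hmgcs1 (59.3%). It was highest for Acaca (89.5%), Ebp (87.4%), Srebf2 (85.9%), Hsd17b7 (83.8%) and Elovl1 (83.5%). By group, the median was 69.5% for sterol enzymes, 74.2% for fatty acid enzymes and 67.0% for the regulators. On the log2 scale, the median deviation of replicate 5 from the mean of 6 cultures was -0.46 for sterol enzymes, -0.38 for fatty acid enzymes and -0.51 for regulators, against -0.014 for all genes. Every member lay above its mean in replicate 6, where the medians were 0.22, 0.24 and 0.22, against -0.013. Members with an NF-Y box had a median of 70.3% in replicate 5 (20 genes, 49.5 to 87.4%), and the 5 without a box 76.6% (56.7 to 89.5%). These ranges overlap.

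**Figure D3:**
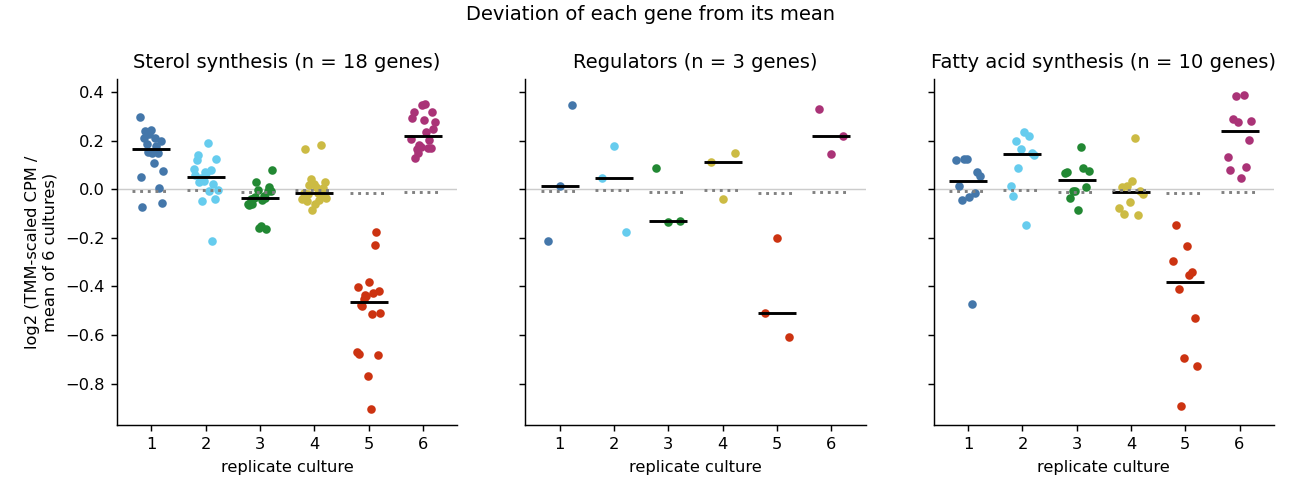
Log2 deviation of each gene's TMM-scaled CPM from its mean over 6 cultures, by replicate; points are genes, black bars the group medians and dotted bars the median of all filtered genes, which is near 0 in every culture. Every member lies below 0 in replicate 5 and above 0 in replicate 6.

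Cell type marker lists also shifted in replicate 5, some down like these genes and others up. In replicate 5 the summed glial lineage list was at 73.6% of the mean of the other cultures, and each of its 6 genes was lowest there, with Sox10 at 80.9% and Erbb3 at 74.1%. The myelin list was at 47.9%, with 6 of 8 genes lowest there. Mbp was at 37.2% and Cnp at 61.6%, whereas Pllp was at 221%. The fibroblast list was at 268%, with 5 of 6 genes highest there. Of all filtered genes, 27.5% were highest and 28.0% lowest in replicate 5. The mural cell list was at 260%, although its marker Cspg4 was at 90.5%. The macrophage list was at 224%, with 62.2 CPM per kb, but it also reached 46.8 in replicate 3 and 56.7 in replicate 4. The endothelial list was at 613%, from a low level (25.7 against 4.2 CPM per kb). The satellite glia list was at 74.8%, with 2 of 4 genes lowest there and Fabp7 at 127.5%. Its sum of 388 CPM per kb was close to the 397 of replicate 1. The proliferation list was at 110% and the neuron list at 63.99%. In bulk RNA, fewer cells of a type and less RNA per cell cannot be told apart, and the part of cell makeup in the result was not tested.

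When each gene was divided by the summed glial lineage list, a scaling chosen after the data were seen, the members' median in replicate 5 became 95.2% of the other cultures. Replicate 5 was then lowest for 10 of 31 members, against 3.58% of all genes. For replicate 2 the number was 13, with no share over all genes to set beside it. The list itself was lowest in replicate 5 (951 CPM per kb) and highest in replicate 2 (1385). Dividing by it therefore raises every gene in replicate 5 and lowers every gene in replicate 2, relative to the other cultures. All filtered genes had a median of 135% on this scale. Single members still differed, from 67.2% for Tm7sf2, 67.7% for Scd1, 74.5% for Lss, 76.9% for Fads2 and 78.9% for Scd2 to 121% for Acaca.

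**Figure D4:**
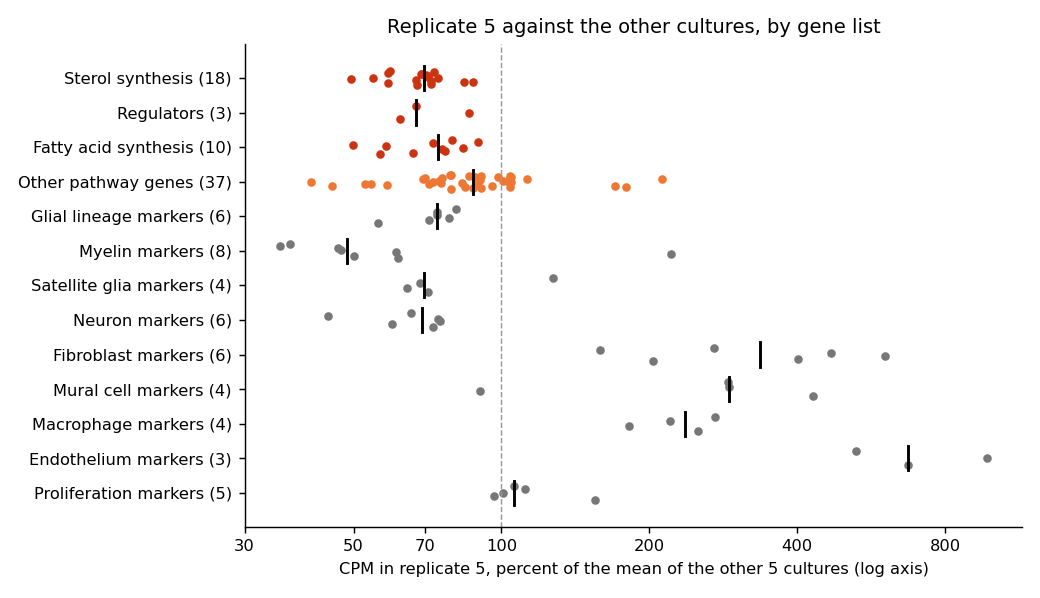
CPM in replicate 5 as a percentage of the mean of the other 5 cultures, on a log axis, with 1 point per gene, black bars at list medians and gene numbers in brackets (filtered genes for the other pathway genes, markers of mean CPM at least 1). Lipid synthesis genes lie between 49.5 and 89.5%, the glial lineage markers between 56.0 and 80.9%, and the medians of the fibroblast, mural, macrophage and endothelial lists lie to the right of the dashed line, which marks equality.

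Isoenzymes and neighbouring steps were compared within each library as 11 differences of log2(CPM per kb + 0.1). Each was tested by flipping signs over all 64 patterns (exact permutation, two-sided). All 11 reached the smallest p this allows, 0.031, which was also the adjusted p (exact permutation), with the same sign in 6 of 6 libraries. Genes of steady but unlike levels would reach this p in most pairings, and no share over other pairs was computed. The p-values therefore show only that the order was the same in every library. Levels per kb depend on the annotated exon length, which can exceed the transcript that cells make.

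For enzymes with a sister gene for another task, the synthesis gene was higher. Acaca exceeded Acacb, the carboxylase tied to control of fatty acid oxidation, by 4.12 ± 0.24 (log2, SD, n = 6), or 17.3-fold. Acat2 exceeded the mitochondrial Acat1 by 0.94 ± 0.29. In replicate 5 the Acat2 difference was 0.44, the smallest of the 6 libraries, and without length scaling it was 0.25 and did not pass (exact sign-flip permutation, adjusted p = 0.138).

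Regulators and desaturases were compared in the same way. Insig1 exceeded Insig2 by 2.85 ± 0.34 on the log2 scale, and in replicate 5 by 2.25, the smallest difference. Srebf2 exceeded Srebf1 by 0.47 ± 0.23, with 0.23 to 0.29 in replicates 3, 4 and 6 and 0.58 to 0.76 in replicates 1, 2 and 5. Scd2 exceeded Scd1 by 0.73 ± 0.11, or 1.65-fold, and most in replicate 5 (0.91). Fads2 exceeded Fads1 by 0.35 ± 0.10, with 0.17 in replicate 5 and 0.35 to 0.44 elsewhere. Without length scaling the Fads difference was 0.06 and did not pass (exact sign-flip permutation, adjusted p = 0.156).

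Along the pathways, Fasn exceeded Acaca by 2.05 ± 0.19, and Sqle exceeded Lss by 2.10 ± 0.18 (log2, SD, n = 6). Elovl5 exceeded Elovl6 by 2.17 ± 0.33 and Elovl1 exceeded it by 1.42 ± 0.11. Fdps exceeded Fdft1 by 2.61 ± 0.055, the smallest spread of the 11 differences. This direction rests on the long annotated exons of Fdft1 (10331 bases against 1461 for Fdps), since without length scaling the difference was -0.20 (exact sign-flip permutation, adjusted p = 0.0382).

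**Figure D5:**
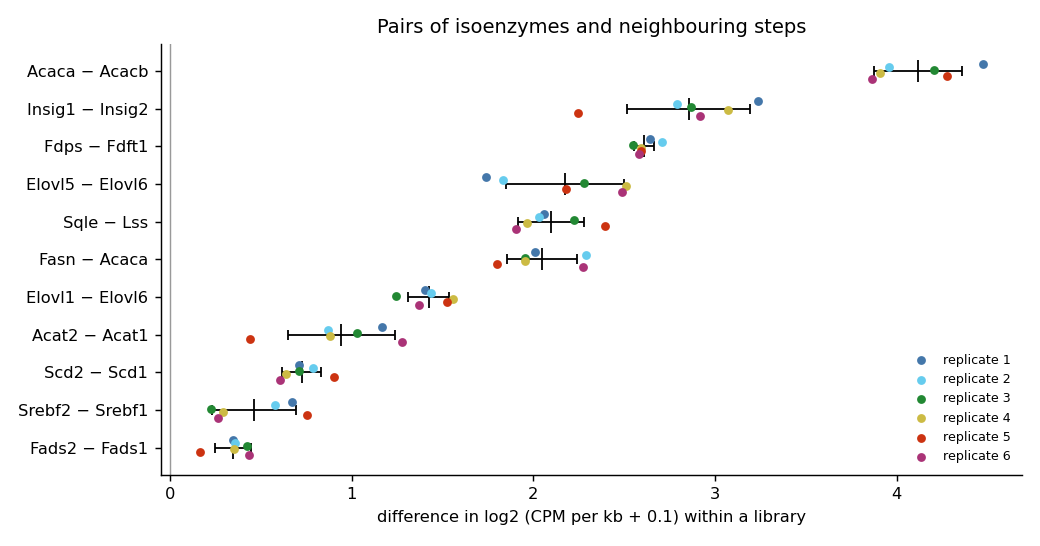
Differences in log2(CPM per kb + 0.1) between paired genes within each library; coloured points are the 6 replicates, black ticks the means and bars 1 SD. All points lie right of 0, from a mean of 0.35 for Fads2 and Fads1 to 4.12 for Acaca and Acacb, and the Fdps and Fdft1 points lie closest together.

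Another 40 genes of lipid uptake, transport, elongation and control were examined as a list. Of these, 37 passed the filter, and all 37 varied beyond counting noise by the chi-square test, against 76.3% of all genes. Elovl3 was counted at 0 in every library and Thrsp, a lipogenic regulator, had at most 2 counts. For Elovl3, a count of 0 in the smallest library allows up to 0.149 CPM, covering counting error only. Replicate 5 was lowest for 20 of the 37 (54.1%), against 30 of 31 members and 28.0% of all genes. Its median was 87.6% of the other cultures, with a range from 41.0 to 212%. The highest levels per kb were those of Tecr (219 CPM per kb), which completes each round of chain elongation, Hsd17b12 (74.9), the reductase of the same cycle, Lipa (67.2), the lysosomal lipase, Npc2 (66.2), a lysosomal cholesterol carrier, and Slc25a1 (55.0), the citrate exporter of mitochondria. In replicate 5 these stood at 84.2, 90.7, 100.8, 104 and 83.2% of the other cultures.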

How the data were processed

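Per the submitters' processing notes, reads were handled with bcl2fastq 2.20.0.422, cutadapt 2.5, STAR 2.7.2b and featureCounts 1.6.4 (Subread) on GRCm38.p6. The deposited table holds unscaled estimated counts per gene, of which 13.4% to 14.7% per library were fractional. Strand and multi-match settings are not given in the sources used here. All 45703 gene identifiers matched RefSeq of GRCm38.p6. Per the labels' protocols, 500 ng RNA of integrity 8.7 or higher entered a stranded poly-A kit with 15 PCR cycles.

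Rounded counts entered edgeR 4.0.16. DESeq2 1.42.0 size factors, under R 4.3.3, were an alternative. filterByExpr kept 14998 genes. CPM used library totals, and the order of libraries used TMM (factors 0.977 to 1.02). The chi-square test compared each gene's counts with those expected from TMM-scaled library sizes, and the test was checked on simulated data. Intervals between cultures are SDs over 6 samples. The chi-square p-values measure spread between these samples beyond counting noise, and that spread may be technical. The sign-flip p-values show only whether the order of paired genes was the same in every library. The labels give no batch. Members, lists and tests were chosen with earlier results of these data known. Named genes were all members, the genes of the 11 differences, the 5 highest other pathway genes per kb and those with at most 3 counts in every library; others are named as chosen later. Marker lists held 4 to 8 genes; the liver list had 3 of 4 genes at or under 3 counts and the proliferation list summed to between 35.6 and 73.5 CPM per kb. Of 12 differences planned, 1 is not reported here, and p-values were adjusted over the other 11. Alternatives were scaling, filtering, rounding, pseudocount, length scaling and leaving out each replicate.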

Additional observations from a re-analysis of the deposited data

Results flagged for a closer look

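A library was taken to stand apart when its distance from the next value, as a share of the whole spread over 6 cultures, passed Dixon's critical value. This was asked of 46 values. It was met by 15 values, where chance alone would flag about 2.3, that is 1 in 20. The values are not independent, since the genes move together.

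The 11 members whose lowest library stood apart all had it in replicate 5. The ratios were 0.631 for Hmgcs1, 0.657 for Fdps, 0.627 for Fdft1, 0.685 for Tm7sf2, 0.65 for Msmo1, 0.634 for Nsdhl and 0.639 for Sc5d. Among fatty acid enzymes they were 0.695 for Scd1, 0.658 for Scd2, 0.713 for Fads1 and 0.705 for Fads2. Over all filtered genes, 6.27% exceeded the critical value and 1.92% did so with replicate 5 lowest. The summed CPM was likewise low in replicate 5, with ratios of 0.673 for all members, 0.636 for sterol enzymes and 0.672 for fatty acid enzymes. The fibroblast and myelin marker values of that library are given above, and their part in these ratios was not tested.

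Among the differences within libraries, Fads2 minus Fads1 stood apart in replicate 5, where it was lowest at 0.17 (ratio 0.669).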

How the results depend on the processing

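Of the alternative values for results that answer a comparison, 141 kept their direction and side of the threshold, or moved by less than the criterion, 4 were weaker and 1 was reversed. The differences between genes with 1 replicate left out have no p-value, so for them only the direction and size could be compared. Their direction could not change, since each difference had the same sign in every library. TMM scaling cancels in a difference within a library, so those values could not move either. Many of the 141 were therefore fixed in advance and are no evidence of stability. All 248 alternative values of the members' mean CPM (TMM, DESeq2 size factors, or 1 replicate left out) moved by less than 1 SD. Leaving out 1 replicate cannot move a mean of 6 values that far, and the scaling factors were near 1. This criterion could therefore hardly fail and is no evidence of stability. Without length scaling, the log2 difference was 0.248 for Acat2 minus Acat1, 0.061 for Fads2 minus Fads1 and -0.204 for Fdps minus Fdft1, which reversed because length scaling alone sets its sign. Among the 9 members with whole counts in all libraries, replicate 5 was lowest for 8, a lower number because fewer genes were counted. Relative to the glial lineage list, replicate 5 was lowest for 10 of 31, against 3.58% of all genes. That scaling itself raises every gene in replicate 5. What else lay behind the change was not tested. Without the low-count filter, 13488 of 26854 genes exceeded counting noise, and leaving out 1 replicate gave 10118 to 11253 calls against 11444. The 31 members called became 29 without replicate 5, against 66.9% of all genes, and 30 without replicate 6, against 73.7%. No paired analysis was possible because there is 1 group. With 6 libraries the exact test cannot go below 0.031, and with 1 replicate left out its limit is higher. Depth limits Elovl3 and Thrsp, which had at most 2 counts in any library.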

Other observations

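A few genes of the other pathway list were picked after their values were seen, and they do not stand for the list. Among genes that move cholesterol, Abcg1, an exporter, was in replicate 5 at 212% of the mean of the other 5 cultures (8.69 CPM against 4.09), and the exporter Abca1 was at 69.9%. Npc1, a lysosomal cholesterol transporter, was at 90.5%. Soat1, which esterifies cholesterol for storage, was at 113%, inside the range of the other cultures. Acss2, which makes acetyl-CoA from acetate, was at 41.0%, the lowest of the 37 filtered genes of that list, with 39.2 CPM against 95.7 ± 15.0 (SD, n = 5). Fads6, a desaturase-like gene, was at 45.2%, and Scd3 and Scd4 were at 54.4 and 52.8%. Hacd1 and Hacd4, dehydratases of the elongation cycle, were at 170% and 179%, from means of 6.75 and 4.95 CPM in the other cultures. These are values of 1 library of 1 group, and no test set replicate 5 against the other cultures. The chi-square test above asked only whether a gene's counts varied between libraries beyond counting noise.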
